A study of Homo sapiens with 12 samples.

Results

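The 40 genes described here act in mitosis and DNA replication and were followed through 8 human tumour cell lines measured on 12 two-channel expression arrays. They were listed by name as 24 mitotic genes, which act in spindle assembly, chromosome segregation and entry into and exit from mitosis, and 16 replication genes, which act in S phase entry, origin licensing and DNA synthesis. A gene's value was the mean of the array features whose only gene symbol was that gene. In this way 39 of the 40 were measured, 23 mitotic and 16 replication genes among 18334 genes in all, through 111 features. UBE2C, the ubiquitin-conjugating enzyme of the anaphase-promoting complex, was not analysed here.

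On every array the cell line RNA was labelled with Cy5 and a whole human RNA reference with Cy3, with no dye-swapped array, in a study whose title concerns tumour tissue factor and thrombosis in pancreatic cancer xenografts. A single array without a media label stood for each of HCT-116, SW620, Capan2, HPAC and HPAFII. A pair of arrays labelled DMSO, a common solvent for drugs, stood for HT29 and another pair for Panc1, and MiaPaca2 had such a pair and 1 array without the label. The design text counts all 8 lines as pancreatic, but cell line catalogues list 3 of them, HT29, HCT-116 and SW620, as colorectal, the name used here. Each is an established line grown from 1 tumour. The labels do not say that paired arrays came from separate cultures, and the p-values below rest on a spread between arrays that may be technical.

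Dividing cells make the members in waves. E2F factors switch on the replication genes around entry into S phase, when the MCM helicase loaded at origins by CDC6 and CDT1 is activated and PCNA clamps the polymerases to DNA. The mitotic genes peak later, in G2 and mitosis, through the MuvB complex with B-MYB and FOXM1, which acts largely through a short promoter element called the cell cycle homology region. In bulk RNA these genes therefore report on how many cells are cycling and in which phase, and a smaller share of cells in a phase cannot be told apart from less RNA per cell.

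The difference between the gene sets is visible in their promoters, and 6 are printed because their genes carry the contrasts described further on. Each is the 120 bases before the RefSeq start on GRCh38.p14, read 5′ to 3′ on the gene's strand. Capitals mark every match on either strand to the cell cycle homology region (spelled TTTGAA, or else as TTCGAA), an E2F site (spelled TTCGCGC, or else as TTGGCGC, or else as TTCCCGC, or else as TTGCCGC) or a CCAAT box (CCAAT).
MKI67, mitotic, chr10:128126424-128126543, minus strand: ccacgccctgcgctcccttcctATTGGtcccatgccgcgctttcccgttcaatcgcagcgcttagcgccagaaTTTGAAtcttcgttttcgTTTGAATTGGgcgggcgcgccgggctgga
KIF11, mitotic, chr10:92593010-92593129, plus strand: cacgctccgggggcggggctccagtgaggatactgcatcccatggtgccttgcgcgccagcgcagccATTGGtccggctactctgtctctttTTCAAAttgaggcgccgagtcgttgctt
CENPA, mitotic, chr2:26785936-26786055, plus strand: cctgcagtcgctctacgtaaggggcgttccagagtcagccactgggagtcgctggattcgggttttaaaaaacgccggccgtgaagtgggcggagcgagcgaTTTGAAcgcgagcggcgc
MCM3, replication, chr6:52284743-52284862, minus strand: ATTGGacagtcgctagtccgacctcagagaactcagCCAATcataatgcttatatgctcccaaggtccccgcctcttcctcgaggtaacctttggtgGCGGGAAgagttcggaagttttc
MCM6, replication, chr2:135876444-135876563, minus strand: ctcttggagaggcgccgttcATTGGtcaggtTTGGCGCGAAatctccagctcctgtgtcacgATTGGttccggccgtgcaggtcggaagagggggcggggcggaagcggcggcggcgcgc
GINS2, replication, chr16:85688955-85689074, minus strand: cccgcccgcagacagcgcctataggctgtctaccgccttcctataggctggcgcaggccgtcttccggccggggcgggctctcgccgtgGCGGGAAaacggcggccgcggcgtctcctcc
Within these stretches the 3 mitotic promoters match the homology region and no E2F site, and the 3 replication promoters match an E2F site and no homology region. Beyond the bases shown, in the longer windows counted next, CENPA also matches an E2F site and MCM6 also matches the homology region. In MKI67 the second homology region match overlaps a CCAAT box read on the other strand, and in MCM6 a pair of E2F matches overlap each other.

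Over whole windows of 300 bases, 250 before and 50 after the start, 36 promoters of 31 members were available. AURKA, BIRC5, CCNE2, FOXM1, MCM4, MCM5, TPX2, TTK and UBE2C had none used here. The homology region was matched in 70.0% of 20 mitotic promoters, 6.2% of 16 replication promoters and 16.4% of all 35116 promoters. MCM6 is the 1 replication promoter with that match. The E2F site went the other way, with 4 of 20 mitotic promoters, 68.8% of replication and 13.0% of all promoters. CCAAT boxes were matched in 85.0% of mitotic, 68.8% of replication and 34.6% of all promoters. A match describes the letters in a window and is neither evidence of binding nor tested, and genes with several starts count more than once.

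**Figure D1:**
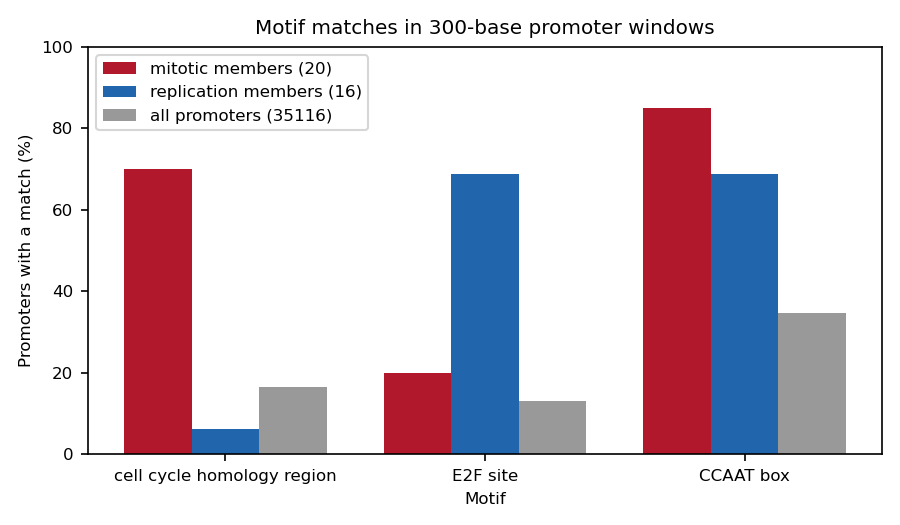
Share of 300-base promoter windows with a match to each motif, in percent, for 20 mitotic and 16 replication promoters and all 35116 promoters. The homology region stands at 70.0% in the mitotic bars and 6.2% in the replication bars, and the E2F site in 4 of 20 mitotic promoters and 68.8% of replication promoters.

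Values are the authors' deposited ratios on a scale taken to be log2. Cell line over reference is the likely direction, though no label gives it, and every sign below would change with the ratio turned. Ratios of different genes have no common scale, so each gene was compared with itself across lines. Array medians lay between -0.001 and 0.042, arrays of 1 group correlated across genes at 0.874 to 0.941, and the median gene had a pooled SD of 0.24 between paired arrays against 0.27 for the median member. Epithelial markers (EPCAM, CDH1, KRT8, KRT18, KRT19) averaged 0.73 to 3.03 on the arrays of 6 lines. Their mean was below 0 on every Panc1 and MiaPaca2 array, -3.24 to -0.44. Single markers went the other way, with KRT19 at 1.49 and 1.52 on the Panc1 arrays and CDH1 at -2.86 in SW620. KRT8 and KRT18 read 0.25 to 0.64 on the MiaPaca2 DMSO arrays. The leukocyte and endothelial lists averaged -1.06 to 0.12 and -2.17 to -0.95 over the 12 arrays, but their genes differed. PTPRC was at -2.38 or below throughout, whereas CD14 ran from 0.14 to 1.77 and CD68 from -1.89 to 2.35. PECAM1 and TEK were below 0 on every array and VWF on most, whereas CD3E, CDH5 and KDR were above 0 on most.

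One pair of arrays differed in its mitotic genes. HT29 DMSO replicate 2 was above replicate 4 for 22 of 23 mitotic members, by 0.57 on average, with a replication mean difference of 0.16 and a median over all genes of 0.064. CCNA2, the cyclin of S phase and G2, read 1.29 and 0.085 on these 2 arrays, and CDK1, the kinase that drives mitotic entry, 1.01 and -0.12. In the Panc1 and MiaPaca2 pairs the mitotic mean difference was -0.063 and 0.019. Counts of calls against HT29 are therefore given with each of its arrays left out.

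Averaged over the mitotic members, each taken relative to its own mean over the 8 lines, HCT-116 stood lowest and Panc1 highest. On the log2 scale the mitotic level was 0.42 in Panc1, 0.33 in MiaPaca2, 0.18 in Capan2, 0.092 in HPAFII, -0.0043 in HT29, -0.025 in HPAC, -0.19 in SW620 and -0.80 in HCT-116. The SD between paired arrays was 0.24, so neighbours in this order down to SW620 lay within that spread, and the step from SW620 to HCT-116 exceeded it. All 23 mitotic members were below their own mean in HCT-116, and 19 of 23 were above it in MiaPaca2.

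The replication members gave another order over a narrower range, 0.57 against 1.22 for the mitotic members. Their level was 0.34 in SW620, 0.16 in Capan2, 0.14 in MiaPaca2, -0.026 in Panc1, -0.10 in HPAFII, -0.12 in HPAC, -0.16 in HT29 and -0.23 in HCT-116, with a paired-array SD of 0.075. SW620 was thus the highest line for replication genes and the second lowest for mitotic genes. The mitotic minus the replication level was 0.45 in Panc1 and -0.53 and -0.57 in SW620 and HCT-116, with a paired-array SD of 0.18. These averages are descriptions and carry no test.

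**Figure D2:**
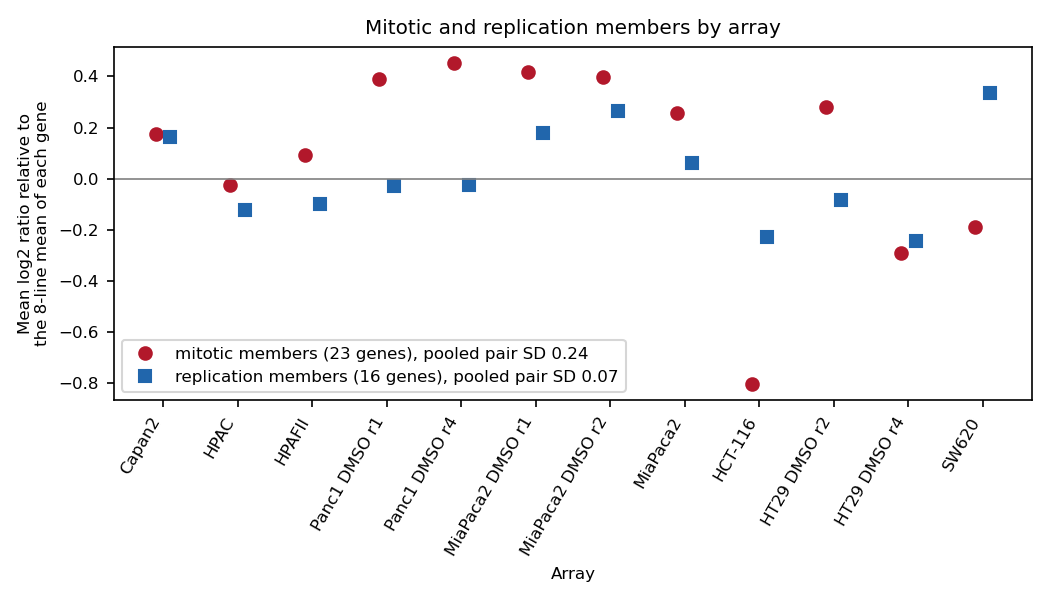
Mean log2 ratio of the 23 mitotic members (circles) and 16 replication members (squares) on each of the 12 arrays, each gene relative to its own 8-line mean. HCT-116 lies at -0.80 for mitotic genes, SW620 at -0.19 for mitotic and 0.34 for replication genes, and the HT29 arrays at 0.28 and -0.29 for mitotic genes.

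**Figure D3:**
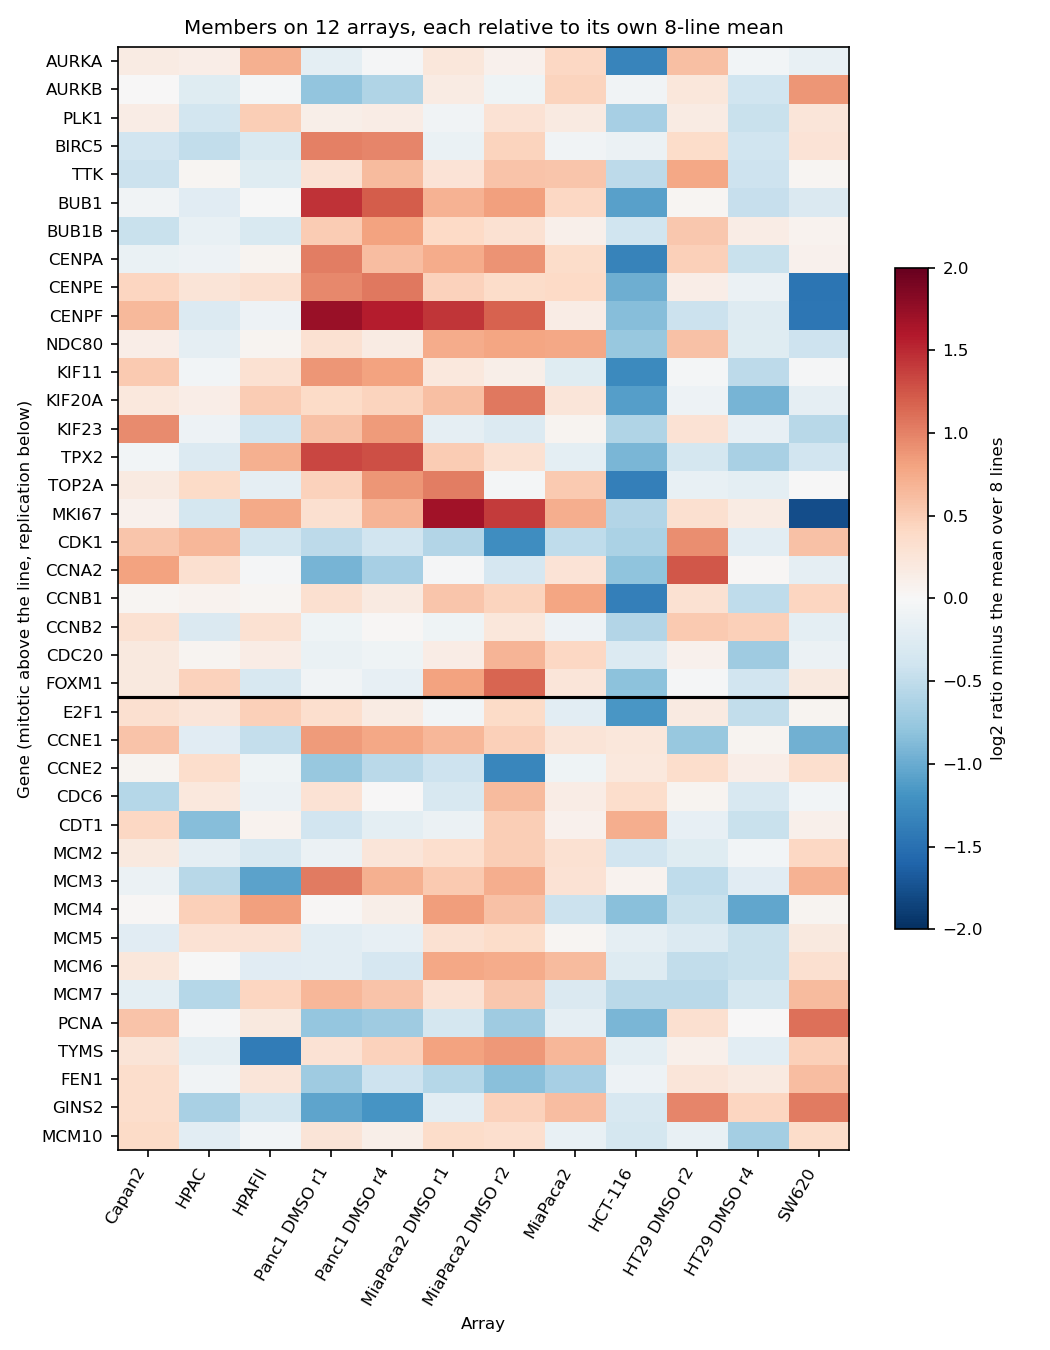
Log2 ratio of each of 39 members on 12 arrays relative to the gene's mean over the 8 lines (red higher, blue lower, colour limits at 2 and -2), mitotic genes above the line and replication genes below. The HCT-116 column is blue for all 23 mitotic members, and SW620 is darkest for CENPE, CENPF and MKI67.

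The question of how Panc1 and HT29 differ under the same media label rests on 2 arrays each. Relative to HT29, Panc1 carried more RNA of the kinetochore genes CENPF and CENPE, the checkpoint kinase BUB1, 3 of 4 spindle motor and microtubule genes and the helicase genes MCM3, MCM4 and MCM7. It carried less of CCNA2 and of the fork genes GINS2, PCNA and FEN1. Of 39 members 15 passed an adjusted p of 0.05 (limma, Benjamini-Hochberg over all 18334 genes), 11 higher and 4 lower in Panc1. This is 38.5% of members beside 37.3% of all genes, so the share called was near the background. Among all genes 21.4% were higher and 15.9% lower, and the median difference was 0.28 over members and 0.071 over all genes.

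CENPF, a kinetochore protein of G2 and mitosis, read 1.08 and 0.92 on the Panc1 arrays and -1.08 and -0.91 on the HT29 arrays. The groups did not overlap, with a difference of 1.99 ± 0.22 (SE, adjusted p = 0.000251), or 3.98-fold. TPX2, which activates Aurora A and nucleates spindle microtubules, read 1.69 and 1.64 against 0.0020 and -0.29. That was the next highest difference, 1.81 ± 0.22 (SE, adjusted p = 0.000438). BUB1, a spindle checkpoint kinase, read 1.41 and 1.18 against 0.010 and -0.50, a difference of 1.54 ± 0.25 (SE, adjusted p = 0.00184). KIF11, the motor that pushes spindle poles apart and whose promoter is printed above, read 1.22 and 1.14 against 0.30 and -0.19, and its difference was 1.12 ± 0.24 (SE, adjusted p = 0.00688). Its 2 features had an r of 0.544 over the 8 lines, and 1 of them carried most of the difference. That feature read 1.89 and 1.60 in Panc1 against 0.20 and -0.40 in HT29. The other read 0.55 and 0.69 against 0.40 and 0.029. CENPE, the kinetochore motor, was 1.00 higher, BIRC5, the survivin subunit of the chromosomal passenger complex, 1.01 higher, and KIF20A, a motor of the central spindle, 0.93 higher. CCNA2 went the other way, at -0.87 and -0.61 in Panc1 against 1.29 and 0.085 in HT29, a difference of -1.43 ± 0.38 (SE, adjusted p = 0.0175). It was the lone mitotic member called lower in Panc1.

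Replication members were called in both directions, 4 higher and 3 lower. All 8 licensing genes had a positive difference, and MCM3 (1.24), MCM7 (1.06) and MCM4 (0.82), subunits of the helicase, passed the test. MCM3 read 0.33 and 0.0090 in Panc1 and -1.21 and -0.94 in HT29, so the pairs did not overlap. CCNE1, the cyclin that drives S phase entry with CDK2, was 1.17 higher, whereas its paralogue CCNE2 had a difference of -0.89 that did not pass (adjusted p = 0.0514). GINS2, a subunit of the GINS complex that activates the helicase at forks, read -1.13 and -1.25 in Panc1 against 0.92 and 0.36 in HT29. At -1.83 ± 0.30 (SE, adjusted p = 0.00194) it was the lowest difference of any member, and every one of these 4 arrays kept to its line's side. PCNA, the sliding clamp, and FEN1, the flap nuclease that matures Okazaki fragments, were also lower, by -0.92 and -0.77. The other fork and nucleotide supply members, MCM10 and TYMS, had positive differences of 0.61 and 0.43 that did not pass.

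The count depended on the Panc1 arrays, with 5 members called without replicate 1 and 8 without replicate 4, where the lone array is assumed to vary like the pairs. Without HT29 replicate 2 or replicate 4 it was 14 or 13. Without HT29 replicate 2 the difference of CCNA2 was -0.82 and that of CCNE1 0.76. Without HT29 replicate 4 those of BIRC5, KIF20A and MCM4 were 0.62, 0.52 and 0.52. None of these passed. BIRC5, CCNE1, CENPE and MCM4 also did not pass without either Panc1 array. KIF20A passed only when HT29 replicate 2 was the array left out. With quantile normalization KIF20A and MCM4 were lost. MCM10 passed without HT29 replicate 2, at 0.87, and CCNE2 without either MiaPaca2 DMSO array, at -0.89. FEN1 was not called with either HT29 array or either Panc1 array left out, its difference running from -0.92 to -0.62. PCNA was not called without HT29 replicate 2 or without either Panc1 array, its difference running from -1.07 to -0.76. BUB1, CENPF, GINS2, MCM3 and TPX2 passed with each of the 6 DMSO-labelled arrays left out in turn. The number of calls over all genes moved with the array left out too.

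MiaPaca2 with the DMSO label, set against the same HT29 arrays, carried more RNA of the MCM helicase and of the proliferation genes MKI67 and FOXM1. Of 39 members 17 passed, 14 higher and 3 lower, which is 43.6% of members beside 31.9% of all genes. In all genes 17.4% were higher and 14.5% lower. The median difference was 0.57 over members and 0.027 over all genes. Replication members were called in 10 of 16, above the share of all genes, and mitotic members in 7 of 23, near that share. The HT29 arrays are shared with the Panc1 comparison, so these differences are not independent of those.

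MCM6, whose promoter is printed above, read 0.40 and 0.38 on the MiaPaca2 DMSO arrays and -0.86 and -0.82 on the HT29 arrays. It differed by 1.23 ± 0.21 (SE, adjusted p = 0.00273), with tight pairs on both sides. MCM4 read 0.83 and 0.58 against -0.46 and -1.05, a difference of 1.46 ± 0.26 (SE, adjusted p = 0.00348). MCM3, MCM7 and MCM5 were 0.99, 0.86 and 0.70 higher, so 5 of the 6 helicase subunits passed, and MCM2 differed by 0.57 without passing. MCM10, which joins the helicase to the polymerase, was 0.77 higher, and TYMS, which makes thymidylate for DNA synthesis, 0.89 higher. CCNE1 was 0.92 higher whereas its paralogue CCNE2 was lower, by -1.10. FEN1 read -0.75 and -1.0 against 0.071 and 0.0020, lower by -0.91 ± 0.23 (SE, adjusted p = 0.0167).

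Among mitotic members MKI67, the Ki-67 antigen of cycling cells that coats mitotic chromosomes, read 1.38 and 1.09 in MiaPaca2 DMSO and 0.014 and -0.14 in HT29. The difference was 1.29 ± 0.24 (SE, adjusted p = 0.00397), or 2.45-fold. FOXM1, the factor that drives mitotic genes, read 0.55 and 0.92 against -0.27 and -0.63, and differed by 1.19 ± 0.24 (SE, adjusted p = 0.00655). CENPF was 1.64 higher, KIF20A 1.35, BUB1 0.97 and TPX2 0.91. CDK1 was the mitotic member called lower, at -0.50 and -1.16 against 1.01 and -0.12, a difference of -1.27 ± 0.38 (SE, adjusted p = 0.0354). Its arrays lay far apart within both pairs.

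Without MiaPaca2 DMSO replicate 2 the count fell to 8, without HT29 replicate 4 to 11 and without HT29 replicate 2 to 14. CCNE1 passed only when HT29 replicate 4 was the array left out, and its difference was 0.51 without HT29 replicate 2. MCM10 passed only when HT29 replicate 2 was left out, and its difference was 0.50 without HT29 replicate 4. MCM5 passed with none of the 6 arrays left out in turn. CDK1 did not pass without HT29 replicate 2 (-0.71) or without MiaPaca2 DMSO replicate 2. CCNE2 did not pass without either HT29 array or without MiaPaca2 DMSO replicate 2 (-0.67). With HT29 replicate 2 left out, CCNE2, FEN1, MCM3, MCM5 and MCM7 were also lost and CCNB1, CDC20, CENPA and NDC80 were gained. CENPF, FOXM1, MCM4, MCM6 and MKI67 passed whichever of the 6 arrays was left out. With the third MiaPaca2 array in the same group the count was 10. MCM4 was then no longer called (difference 1.08, adjusted p = 0.0631), nor were MCM5, MCM7, MCM10, CCNE1, CCNE2 and TPX2. Of the helicase subunits only MCM3 and MCM6 were still called.

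Between MiaPaca2 and Panc1, the 2 lines with mean epithelial marker ratios below 0, 6 of 39 members passed. This is 15.4% beside 18.7% of all genes, of which 7.40% were higher and 11.3% lower in MiaPaca2. GINS2 was higher in MiaPaca2, at -0.29 and 0.39 against -1.13 and -1.25, by 1.24 ± 0.30 (SE, adjusted p = 0.0227). FOXM1 was 1.11 higher, MKI67 1.05 and MCM6 1.03. TPX2 was lower by -0.90 and KIF23, the motor of the cytokinetic midzone, by -0.95, at -0.29 and -0.38 against 0.49 and 0.75. No call remained when either Panc1 array was left out, and 2 and 4 members passed without MiaPaca2 replicate 2 and replicate 1.

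**Figure D4:**
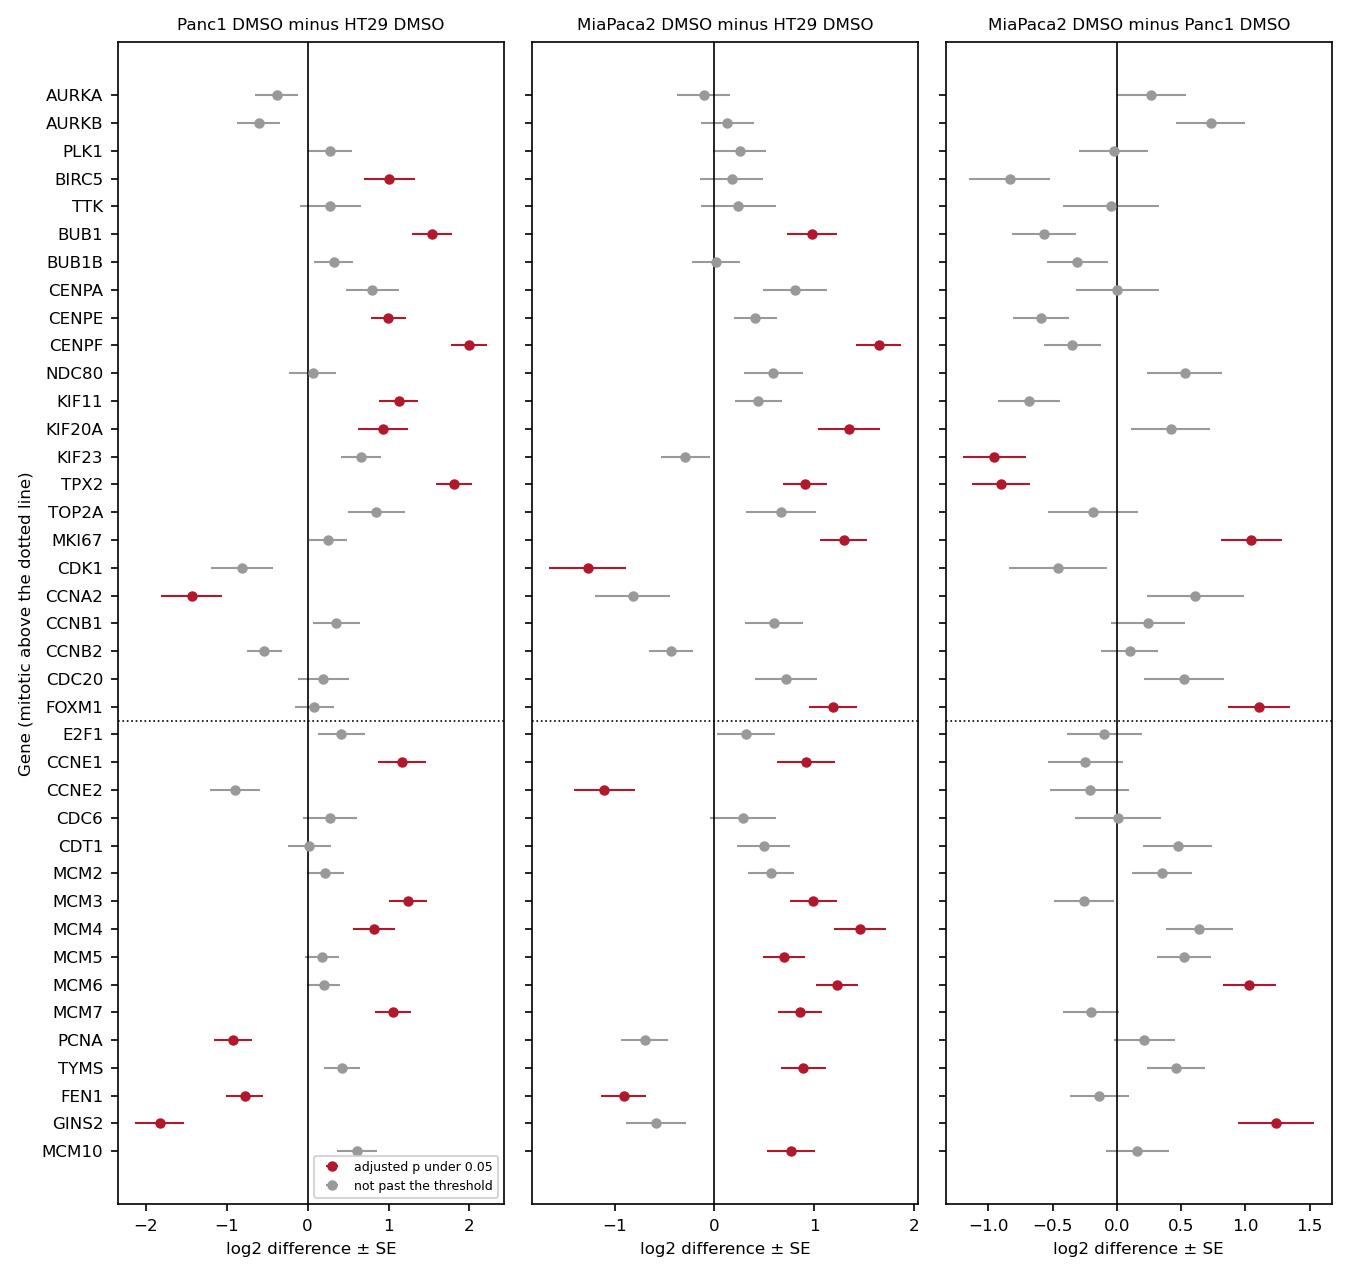
Differences in log2 ratio with their standard errors for 39 members in the comparisons of the DMSO-labelled lines (2 arrays each), red where the adjusted p was under 0.05. CENPF and TPX2 are farthest right in the first panel at 1.99 and 1.81, and GINS2 farthest left at -1.83.

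MiaPaca2 arrays with and without the DMSO label differed in none of the 39 members by limma, with 5 at an unadjusted p under 0.05, beside 0.600% of all genes called. CENPF read 0.78 and 0.53 with the label and -0.50 without, a difference of 1.15 ± 0.27 (SE, adjusted p = 0.0994). Using the most variable feature of each gene made CENPF pass, but the 2 CENPF features differed here. The more variable feature read 1.363 and 1.467 with the label and -0.57 without. The other feature read 0.188 and -0.415 with the label and -0.435 without. MCM4 read 0.83 and 0.58 with and -0.44 without the label (adjusted p = 0.138). The unlabelled group has a single array, so array and label cannot be told apart.

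HCT-116 was set against the mean of the other 7 lines, as was every line in turn, in comparisons added after the data had been seen. It carried less RNA of mitotic genes across roles, from Aurora A to the mitotic cyclin B1. Of 39 members 14 passed, all lower, which is 35.9% beside 15.5% of all genes called in either direction, 8.54% higher and 7.0% lower. They were 11 of 23 mitotic and 3 of 16 replication members, with a median difference of -0.92 over mitotic and -0.26 over replication members against -0.024 over all genes. HCT-116 had 1 array, which is assumed to vary like the DMSO-labelled pairs, so array and line cannot be told apart. HT29 and Panc1 had only DMSO-labelled arrays, whereas HCT-116, SW620, Capan2, HPAC and HPAFII had none. Line and media label therefore cannot be told apart in any comparison that sets these lines against each other.

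AURKA, the kinase of spindle poles, read -1.39 in HCT-116, and the other 7 lines ran from -0.21 through a median of 0.11 to 0.65. It was lower by -1.51 ± 0.28 (SE, adjusted p = 0.00921), 2.85-fold. CCNB1, the cyclin that activates CDK1, read -0.52 against 0.75, 0.92 and 1.49 as the lowest, median and highest of the others, lower by -1.57 ± 0.30 (SE, adjusted p = 0.0110). TOP2A, the topoisomerase that untangles sister chromatids, read -1.80 against -0.61, -0.25 and 0.25, lower by -1.57 ± 0.37 (SE, adjusted p = 0.0237). In each of these 3 genes no other line reached the HCT-116 level. KIF11 read -0.94 against 0.057, 0.30 and 1.18, lower by -1.46 ± 0.25 (SE, adjusted p = 0.00649). CENPA, the histone variant that marks centromeres, read -0.90 against 0.31, 0.49 and 1.26, lower by -1.53 ± 0.34 (SE, adjusted p = 0.0191). Both have a homology region printed above. KIF20A, BUB1, CENPE, TPX2, CENPF and FOXM1 were lower by -1.25 to -0.94, and for CENPE and CENPF SW620 was lower still.

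E2F1, the transcription factor of S phase entry, was the replication member farthest below the others in HCT-116, at -0.68 against 0.33, 0.73 and 0.96, lower by -1.33 ± 0.30 (SE, adjusted p = 0.0215). PCNA and MCM4 were lower by -1.04 and -0.96. CDT1 and CDC6, the licensing factors, were highest in HCT-116 among the 8 lines, at -0.12 and 0.14, and did not pass. HCT-116 was the lowest line for 19 of 39 members, 15 of them mitotic. With either Panc1 array left out 8 members passed, AURKA, BUB1, CCNB1, CENPA, CENPE, E2F1, KIF11 and TOP2A, and with other arrays left out 14 to 16. Without either MiaPaca2 DMSO array CDT1 was among those 14, as the lone member called higher, and MCM4 was not.

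SW620 split the members instead of shifting them together. Of 39 members 7 passed, 3 higher and 4 lower, or 17.9% beside 16.6% of all genes, near the background, with 7.49% of all genes higher and 9.11% lower. MKI67 read -2.08 in SW620 against a lowest, median and highest of -0.90, -0.062 and 0.83 in the other lines, lower by -2.03 ± 0.25 (SE, adjusted p = 0.00114), 4.08-fold. CENPF read -2.10 against -1.51, -0.75 and 1.00, lower by -1.66 ± 0.23 (SE, adjusted p = 0.00221), and CENPE -1.72 against -1.23, 0.059 and 0.75, lower by -1.67 ± 0.23 (SE, adjusted p = 0.00192). For all 3 SW620 was the lowest line and HCT-116 the next. Of 23 mitotic members 14 were below their own 8-line mean in SW620 and 9 above it. AURKB, the kinase of the chromosomal passenger complex, read 1.27 against -0.31, 0.31 and 0.62, higher by 1.01 ± 0.28 (SE, adjusted p = 0.0434).

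The fork genes PCNA, GINS2 and FEN1 were highest in SW620. PCNA read 1.29 against -0.72, 0.16 and 0.76 in the other lines, higher by 1.27 ± 0.25 (SE, adjusted p = 0.0106), 2.41-fold. GINS2 read 0.97 against -1.19, -0.39 and 0.64, higher by 1.18 ± 0.31 (SE, adjusted p = 0.0369). In all 14 of 16 replication members were above their own 8-line mean in SW620. The members below it were CDC6, at -0.26, and CCNE1, at -1.09 and lower by -1.10 (adjusted p = 0.0443). The single SW620 array carries the same limit as HCT-116, and CENPE, CENPF, MKI67 and PCNA were the 4 that passed with Panc1 replicate 1 or replicate 4 left out.

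**Figure D5:**
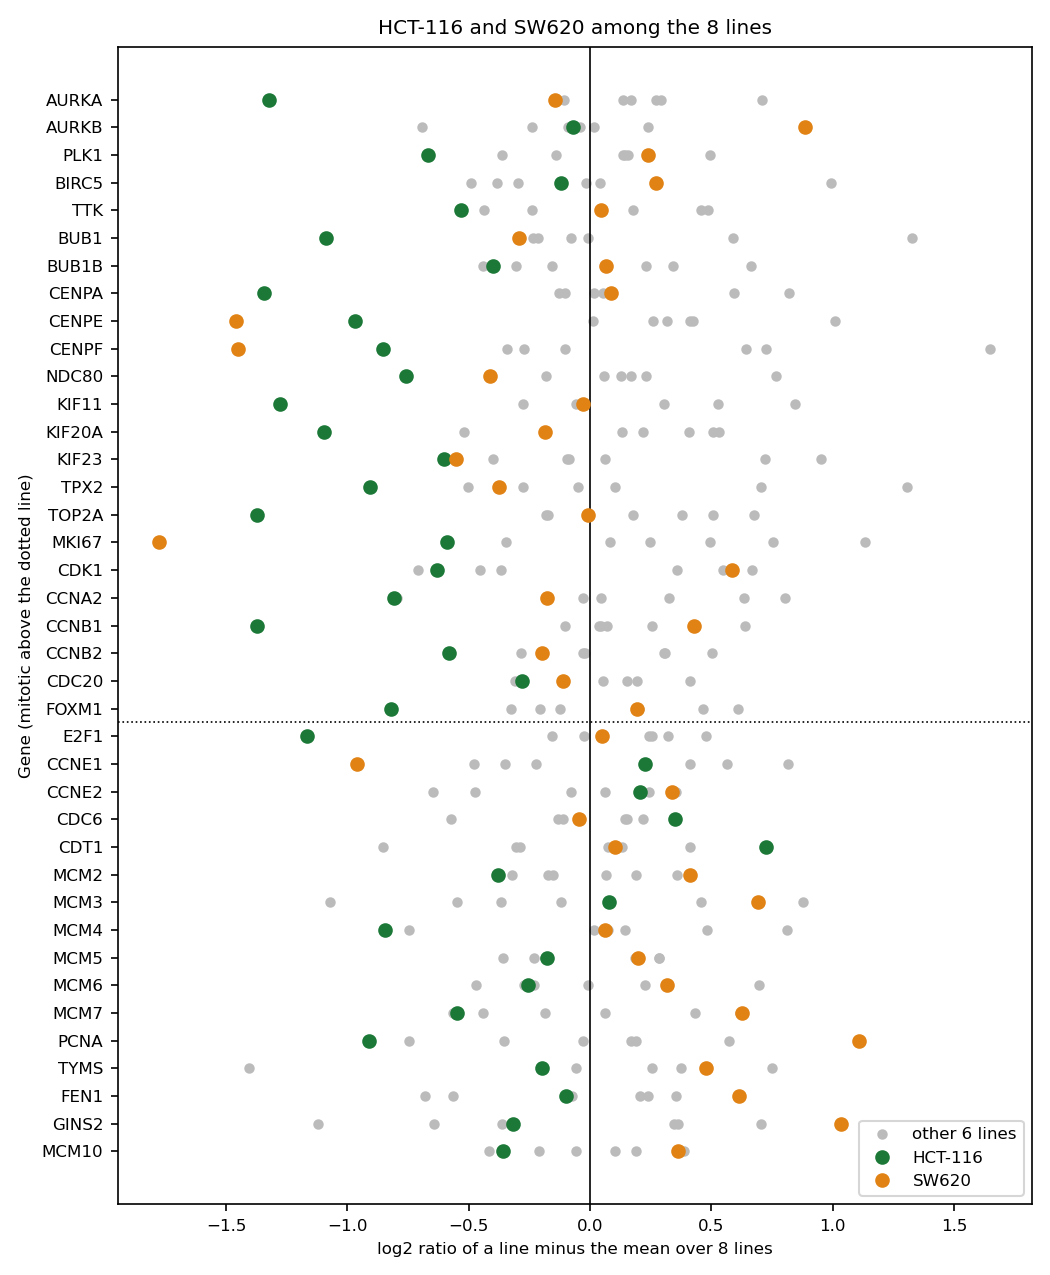
Line values of 39 members relative to the gene's mean over 8 lines, with HCT-116 in green, SW620 in orange and the other 6 lines in grey. HCT-116 is left of 0 for all 23 mitotic members, and SW620 is far left for MKI67, CENPF and CENPE and farthest right for PCNA, GINS2 and AURKB.

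In Panc1 19 members passed against the other 7 lines, 13 higher and 6 lower, or 48.7% beside 38.5% of all genes, 21.9% higher and 16.7% lower. The higher ones were mostly mitotic, 10 of them, and beyond those already described included BUB1B (0.76), a checkpoint protein, and CENPA (0.94), while AURKB was lower by -0.79. The count was 5 and 8 without Panc1 replicate 1 and replicate 4. MiaPaca2 had 10, 9 higher and 1 lower, or 25.6% beside 29.1% of all genes, 13.7% higher and 15.4% lower. MKI67 was its highest difference at 1.30 (adjusted p = 0.000650), and NDC80, which couples kinetochores to microtubules, was 0.88 higher and highest of the 8 lines.

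HPAFII had 5 members called, 12.8% beside 24.9% of all genes, 10.8% higher and 14.2% lower. TYMS read -1.88 there against -0.67, -0.22 and 0.28 in the other lines, lower by -1.60 ± 0.23 (SE, adjusted p = 0.00185), and MCM3 -1.78 against -1.26, -0.63 and 0.17, lower by -1.23 ± 0.25 (SE, adjusted p = 0.00823). MCM4 (0.93), MKI67 (0.86) and TPX2 (0.80) were higher. The HPAFII array had the widest spread of feature values, an SD of 1.57 where the others had 1.13 to 1.34, and with quantile normalization, as without either Panc1 array, TYMS and MCM3 alone passed. Whether that spread has a part in the 3 higher calls was not tested.

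HT29 had 5 members called, 12.8% beside 24.7% of all genes, 11% higher and 13.8% lower, among them MCM4, lower by -0.85, and MCM6, lower by -0.54. The count was 1 without either Panc1 array and 2 without either HT29 array. Capan2 had 1, KIF23, which read 0.85 against -0.70, -0.19 and 0.62, higher by 1.09 (adjusted p = 0.0260), beside 15.7% of all genes, 8.98% higher and 6.72% lower. It was not called without Panc1 replicate 1, and CCNA2 without HT29 replicate 2 and CENPF without MiaPaca2 DMSO replicate 1 joined it. HPAC had none of 39 by limma and 4 at an unadjusted p under 0.05, beside 11.7% of all genes, 6.61% higher and 5.06% lower. CDT1 alone passed there without either MiaPaca2 DMSO array.

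In a moderated F test over the 8 lines 22 of 39 members varied beyond the spread of paired arrays, 56.4% beside 58.3% of all genes. Their median range over lines was 1.58 and that of all genes 1.56, so the members varied about as much as a typical gene. CENPF had the widest range at 3.10 (adjusted p = 0.000358), then MKI67 at 2.91, CENPE at 2.47 and BUB1 at 2.42. The count was 13 and 14 without Panc1 replicate 1 and replicate 4.

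The 5 pancreatic lines did not differ from the 3 colorectal lines in any member by limma, with 7 at an unadjusted p under 0.05, beside 0.0109% of all genes called. The median difference was 0.56 over mitotic members, with 19 of 23 above 0, and -0.013 over replication members. CENPF, CENPE, KIF20A and TPX2 had line values that did not overlap between the origins. KIF20A ran from 0.24 to 0.64 in the pancreatic lines and from -0.99 to -0.085 in the colorectal lines, a difference of 0.96 ± 0.25 (SE, adjusted p = 0.460). TPX2 ran from 0.085 to 1.67 and from -0.55 to -0.015. For CENPF the lowest pancreatic line, HPAC, was at -0.926 and the highest colorectal line, HT29, at -0.9935. HT29 DMSO replicate 4 read -0.9105 for CENPF, above HPAC, so its single arrays did overlap between the origins. Among all genes 5.61% had line values without overlap.

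Across the 8 lines mitotic members followed each other more closely than replication members did. The median Pearson r was 0.44 over 253 mitotic pairs, 215 of them above 0, but 0.082 over 120 replication pairs and 0.14 over 368 mixed pairs. CENPA and TOP2A were closest to the mean of the other mitotic members, at 0.925 and 0.912, and AURKB stood apart at -0.317 and followed the replication mean at 0.685. MCM2 was closest to the other replication members at 0.919. All points share 1 reference RNA, and HCT-116 is a low extreme for many members. Of genes outside the lists, GUSBP11 (0.975), C1orf56 (0.967), GUSB (0.964), PHF19 (0.954) and ACOT1 (0.948) had the highest r with the member mean over the 8 lines.

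Further genes of the same processes were counted from 3 lists. In Panc1 against HT29, 28 of 59 further mitosis genes passed (47.5%, beside 37.3% of all genes), 18 higher and 10 lower, with ANLN, the cytokinesis scaffold anillin, at 2.19 and the checkpoint gene MAD2L1 at -2.97. Of 52 further replication genes 20 passed (38.5%, near that background), 11 higher and 9 lower, with CLSPN, the checkpoint mediator claspin, at 1.84 and RAD51AP1, a recombination factor, at -2.74. Of 28 G1 control genes 9 passed (32.1%), 4 higher and 5 lower, with E2F7, a repressor of E2F targets, at 1.63 and SKP2, which targets p27 for degradation, at -1.87. In MiaPaca2 against HT29 the counts were 18, 12 and 8, with 13, 9 and 2 higher. These are 30.5%, 23.1% and 28.6% of the lists, at or below the 31.9% of all genes. In MiaPaca2 against Panc1 they were 8, 7 and 5, with 4, 5 and 2 higher, or 13.6%, 13.5% and 17.9%, below the 18.7% of all genes. With and without the DMSO label in MiaPaca2, CLSPN alone passed, 1.85 higher.

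In HCT-116 against the other lines 19 of 59 further mitosis genes were lower and none higher (32.2%, beside 7.0% of all genes lower), with CENPI, a centromere protein, at -2.26 and ANLN at -2.15. Of 52 further replication genes 7 were lower and none higher (13.5%), MCM8 at -1.73 and POLD3 at -1.42 being the lowest. Of 28 G1 control genes 3 were higher and 1 lower, or 14.3% beside 15.5% of all genes in either direction. In SW620 2 of 59 further mitosis genes were lower, PRC1 at -0.93 and TROAP at -0.92, which is 3.39% beside 9.11% of all genes lower. Of 52 further replication genes 5 were higher, with PRIM1, the DNA primase subunit, at 1.52, which is 9.62% and near the 7.49% of all genes higher.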

How the data were processed

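The 12 arrays, each with a cell line channel and a reference channel, fell into 9 groups of line and media label. The authors deposited values taken here as log2 ratios, 1 per feature and array for 45220 features, running from -10.71 to 9.61. How the authors made these log2 values (log base, background correction, normalization, direction) is not given in the sources used here. Without intensities dim features could not be told from bright ones. Symbols came from the platform annotation, updated through RefSeq (GRCh38.p14): 31332 features had 1 symbol, 93 several and 13795 none, and only the first were used. Features of a gene were averaged, so 24 members rest on 1 feature and 15 on 2 to 11. The features of genes with 10 copies had a median SD of 0.073 to 0.10 on an array, while those of CCNB2 disagreed (r = -0.141 over lines).

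Differences were tested in R 4.3.3 by limma 3.58.1 (lmFit and eBayes, two-sided), with 3 residual and 5.23 prior degrees of freedom from the DMSO-labelled pairs, and on 8 line means for origin (6 and 2.22). The members, sets and lists, and the rule for named genes, were chosen with earlier results of these data known. The rule names all members, the 2 highest and 2 lowest called genes of each further list, of which the farthest are printed, and the 5 genes most like the member mean. The tests were tried on simulated data. The number of arrays limits precision. Figures used matplotlib 3.10.9.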

Additional observations from a re-analysis of the deposited data

Results flagged for a closer look

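Of 86 sets of line values, 8 held a line whose gap to its nearest neighbour exceeded Dixon's critical value, where chance alone gives about 1 in 20 for a single set. Of these, 6 were HCT-116 below the other 7 lines: AURKA at -1.39 with the next line at -0.21, CCNB1 at -0.52 with the next at 0.75, CENPA at -0.90 with the next at 0.31, E2F1 at -0.68 with the next at 0.33, TOP2A at -1.80 with the next at -0.61, and the mean over all 39 members at -0.57 with the next at -0.070. TYMS in HPAFII lay at -1.88 with the next line at -0.67. CENPE in Panc1 lay at 0.75, above the other 4 pancreatic lines, of which the nearest was at 0.17. The HCT-116 and HPAFII values come from single arrays. The 86 sets are not independent, since pancreatic lines were tested alone and within the 8 lines, and the means contain the single members. The rate for a single set is therefore no measure of how many flags chance would give.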

How the results depend on the processing

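No direction of a called result turned under any alternative run, though many single calls were lost. The limits set were 1.5 times for a count and 1 SD between paired arrays for a level. For member counts in the comparisons planned first and for levels, 259 alternative values stayed within these limits and 18 moved. For member counts of each line against the other 7, comparisons added after seeing the data, 72 stayed and 32 moved. In MiaPaca2 DMSO against HT29, where 17 members were called, restricting to genes with an SD above the median gave 11 (19 members tested), pooling the 3 MiaPaca2 arrays 10 and a minimum difference of 1 gave 8. The most variable feature gave 1 call in MiaPaca2 with against without the label. Against the other 7 lines, the SD filter gave 0 in Capan2, 12 in Panc1 and 3 in HT29; a minimum difference of 1 gave 2 in HPAFII, 7 in Panc1, 1 in MiaPaca2 and 0 in HT29; the most variable feature gave 3 in HPAFII, 2 in HT29 and 4 in SW620; and quantile normalization 2 in HPAFII and 3 in HT29. With a median over genes the replication level was 0.24 in Capan2 and 0.070 in Panc1, and without E2F1, CCNE1 and CCNE2 it was 0.46 in SW620. The CCNB2 call in HT29 rests on 2 features that disagree.

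With one DMSO-labelled array left out at a time, calls ran from 5 to 16 in Panc1 against HT29, 8 to 15 in MiaPaca2 against HT29, 0 to 6 in MiaPaca2 against Panc1, and 13 to 27 among lines. They ran from 0 to 2 in Capan2, 0 to 1 in HPAC, 2 to 6 in HPAFII, 5 to 19 in Panc1, 8 to 14 in MiaPaca2, 8 to 16 in HCT-116, 1 to 6 in HT29 and 4 to 7 in SW620. The origin comparison, with each line left out, and the label comparison stayed at 0. Calls over all genes moved in these runs too, so the member counts do not describe the members alone.

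Same-numbered arrays deviated from their group means with correlations of 0.144, -0.010 and -0.134. The deviations within a pair of arrays mirror each other, and no groups share both replicate numbers. These correlations therefore cannot tell whether the replicate numbers pair the arrays. The replicate block gave 13 calls in Panc1 against HT29, 9 in MiaPaca2 against HT29, 1 in MiaPaca2 against Panc1, 19 among lines, and 1, 2 and 1 in HPAC, HPAFII and HT29 against the other lines. The call in MiaPaca2 against Panc1 was BIRC5, not called before, and all 6 earlier calls there were lost. In Panc1 against HT29, CCNE1, FEN1 and MCM4 were lost and CENPA was gained.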
